A study of Homo sapiens with 9 samples.

Results

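The analysis covered 10 human genes that carry glucose into the cell and break it down to lactate. They were picked by symbol (1 row per symbol, that with the highest mean level) from 60605 genes in the deposited table, and all 10 were among the 21395 genes that passed the filter on low values (0.1 FPKM or more on average). The genes were SLC2A1 (glucose uptake), HK1 and HK2 (hexokinases), PFKP (phosphofructokinase), ALDOA, GAPDH, PGK1, ENO1 and PKM (the lower steps to pyruvate) and LDHA (lactate dehydrogenase). Coordinates below are those of the deposited table, on GRCh38. The libraries came from TE13, a cell line of epithelial carcinoma cells from esophageal squamous cell carcinoma. Cells received a control siRNA or 1 of 2 siRNAs against PARylator, the long noncoding RNA LINC00885, and each of the 3 groups had 3 poly(A)-selected RNA-seq libraries. All 9 libraries came from this single line, no other treatment is given in the labels, and the study calls the replicates experimental repeats. Neither the labels nor the study's text says whether they were separate cultures, so p-values measure the spread between these libraries, which may be technical. Both comparisons with control share the same 3 control libraries.

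Glycolysis splits a glucose molecule into pyruvate in the cytosol. Transporters of the SLC2A family let glucose enter, a hexokinase traps it by phosphorylation, phosphofructokinase makes the committed step, and the lower enzymes recover ATP. Lactate dehydrogenase then converts pyruvate to lactate and regenerates NAD+, and tumor cells are known for running this route even when oxygen is present. Several steps are served by isoenzymes from separate genes, and many of these genes are known targets of the transcription factors HIF-1 and MYC.

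Library totals were between 15337917 and 17899074 counts on genes under control siRNA, between 15374616 and 17762752 under siRNA.1 and between 19213164 and 22559998 under siRNA.2. Mitochondrially encoded genes took 7.46% to 7.66% of the counts in the control libraries, 4.99% to 5.06% under siRNA.1 and 5.54% to 5.56% under siRNA.2, and leaving them out of the scaling between libraries changed 1 call against control among the 10 genes, that of PFKP under siRNA.1 (adjusted p = 0.0520). Counts of LINC00885 itself were 6, 7 and 12 under control siRNA, 4, 5 and 2 under siRNA.1, and 2, 0 and 4 under siRNA.2. Its log2 fold change was -1.21 under siRNA.1 (SE 0.95, adjusted p = 0.376) and -2.33 under siRNA.2 (SE 1.01, adjusted p = 0.0659) in edgeR's quasi-likelihood test with Benjamini-Hochberg adjustment, so the knockdown was not detectable at this depth. The study itself reports the knockdown from qPCR. The 8 squamous epithelial markers were present in every group, with a summed level of 650 to 662 FPKM under control siRNA, 573 to 600 under siRNA.1 and 563 to 582 under siRNA.2. Summed fibroblast markers (6 genes) were 2.23 to 2.49, 1.46 to 1.64 and 1.50 to 1.72 FPKM in the same order, with DCN at 0 with both PARylator siRNAs. Endothelial markers (4 genes) were 1.20 to 1.54, 0.63 to 0.89 and 0.42 to 0.55 FPKM, with KDR at 0 in the control and siRNA.1 libraries. Blood cell markers (7 genes) were 0.18 to 0.70, 3.25 to 3.74 and 3.34 to 4.05 FPKM, mostly LYZ, with MS4A1 and HBB at 0 in all groups, and the part of these markers in the results was not tested.

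FPKM scales each count by exonic length and library total, so it allows levels to be compared between genes. This is less certain for ALDOA and GAPDH, which share 54.2% and 17.6% of their exonic bases with other genes in GENCODE release 44. How reads on such bases were counted is not given, so the place of ALDOA in the orders below is uncertain. In the control libraries the 10 genes ran from GAPDH, the highest at a mean of 1133 FPKM, down to HK2 at 16.0 FPKM. The order between them was ENO1 (340 FPKM), PKM (201), LDHA (163), PGK1 (162), ALDOA (40.6), HK1 (38.9), PFKP (37.5) and SLC2A1 (30.4), and only LDHA and PGK1 had overlapping ranges among neighbours in that order. Under siRNA.1 PGK1 stood above LDHA and PFKP above ALDOA and HK1, with no overlap between neighbours. The same order held under siRNA.2, where ALDOA (30.5 to 33.1 FPKM) and HK1 (30.0 to 32.4 FPKM) overlapped. Together the 10 genes took 0.906% ± 0.0130 (SD, n = 3) of all counts under control siRNA, 0.824% ± 0.0152 under siRNA.1 and 0.849% ± 0.0160 under siRNA.2.

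**Figure D1:**
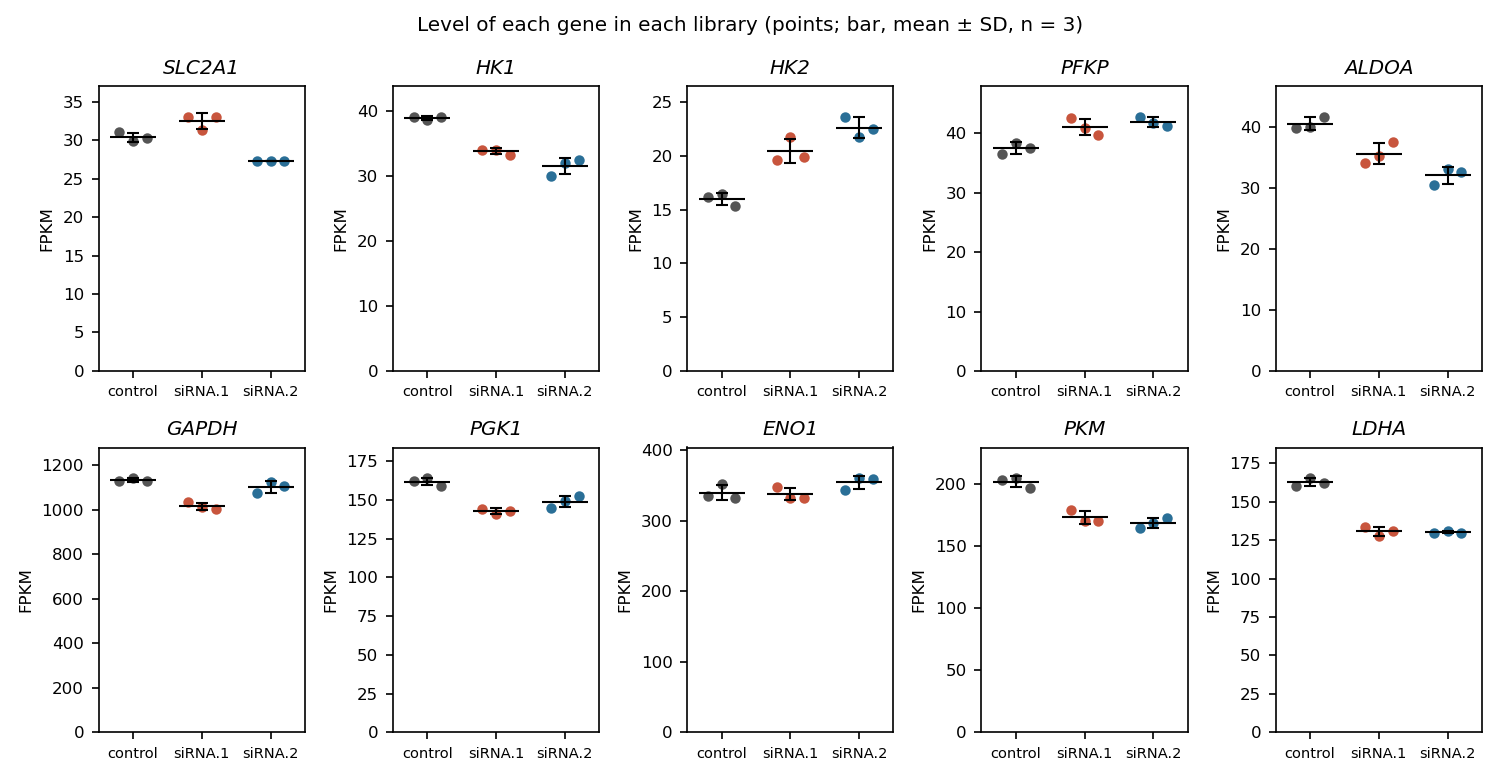
FPKM of each of the 10 genes (vertical axes, each from 0) in each library of the control siRNA, PARylator siRNA.1 and PARylator siRNA.2 groups, with points for libraries and bars for mean ± SD. LDHA sits at 160 to 165 FPKM in the control libraries and at 128 to 133 in those of both PARylator siRNAs, while HK2 is higher in all 6.

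Under siRNA.1, most of those among the 10 genes that serve the pathway's lower steps were lower, and HK2 was higher. Of the 10 genes, 8 passed an adjusted p of 0.05 in edgeR's quasi-likelihood test, against 30.3% of all 21395 genes tested. Of the 2404 genes with at least the mean FPKM of the lowest of the 10, a background added after seeing the data, 60.8% were called. The 2 higher genes were HK2 and PFKP, and the 6 lower were HK1, ALDOA, GAPDH, PGK1, PKM and LDHA, where 15.0% of all genes were called higher and 15.2% lower. The median log2 fold change over the 10 was -0.20, beside -0.00056 over all genes, and their median absolute change of 0.21 was below the 0.30 of all genes tested and above the 0.17 of genes at similar levels. The FPKM ranges did not overlap control in 9 of the 10, against 37.7% of all genes. These ranges lack the TMM factors of the test, and the share among genes at similar levels was not counted.

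Under siRNA.2, 8 of the 10 passed, against 30.9% of all genes and 62.2% of genes with at least the lowest mean FPKM. HK2 and PFKP were higher (15.8% of all genes were), and SLC2A1, HK1, ALDOA, PGK1, PKM and LDHA were lower (15.1% of all genes were). The median log2 fold change of the 10 was -0.15, beside 0.0040 over all genes, and the median absolute change was 0.22, beside 0.31 over all genes and 0.17 over genes at similar levels. FPKM ranges did not overlap control in 9 of the 10, against 39.6% of all genes, and ENO1 was the one that overlapped. Here too the share among genes at similar levels was not counted.

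**Figure D2:**
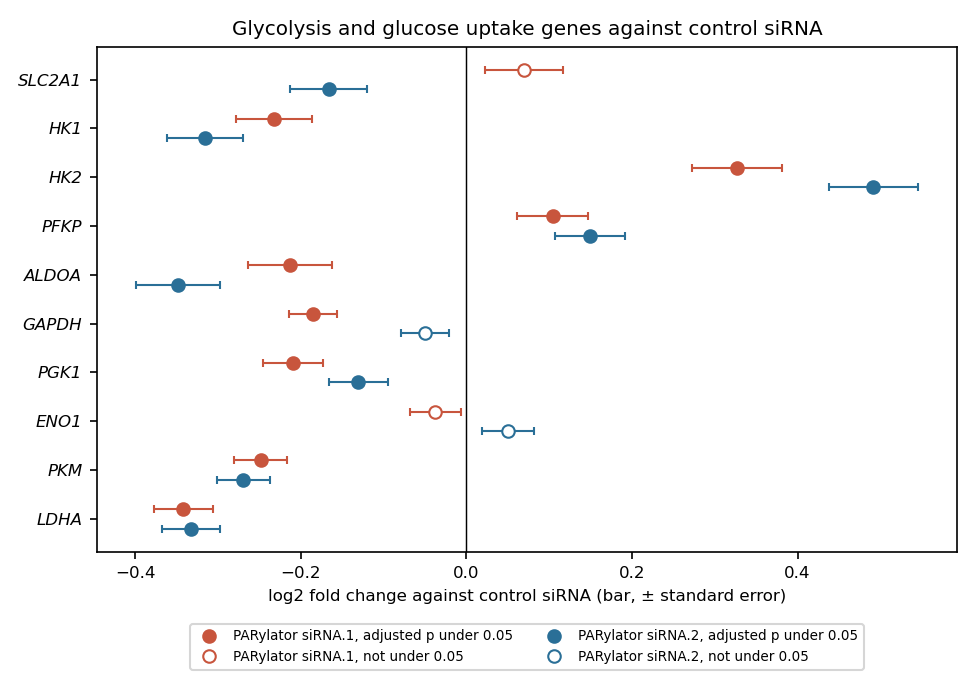
Log2 fold change against control siRNA (horizontal axis) for each of the 10 genes, with bars of ± 1 SE, in red for siRNA.1 and blue for siRNA.2, and filled symbols where the adjusted p was under 0.05. HK2 is the one furthest above 0, at 0.33 and 0.49, and LDHA lies near -0.33 with both siRNAs.

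The transcript of the main glucose transporter differed between the siRNAs. SLC2A1 (GLUT1, the widely expressed basal glucose transporter; ENSG00000117394, chromosome 1, 42925353 to 42958893, minus strand) was at 31.0, 29.9 and 30.2 FPKM under control siRNA, at 33.1, 31.4 and 33.1 under siRNA.1 and at 27.3 in all 3 siRNA.2 libraries. In FPKM, which lacks the TMM factors used in the test, the siRNA.1 libraries were all above control and the siRNA.2 libraries all below. Its log2 fold change was 0.07 under siRNA.1 (SE 0.05, adjusted p = 0.286) and -0.17 under siRNA.2 (SE 0.05, adjusted p = 0.00192), and the direct comparison of siRNA.2 against siRNA.1 gave -0.24 (SE 0.05, adjusted p = 1.53e-05). The siRNA.2 call was lost in limma on log2(FPKM + 0.1) (-0.15, adjusted p = 0.0522). SLC2A3 (GLUT3, a high-affinity transporter) was a minor transcript in every group, at 1.19, 1.19 and 1.06 FPKM under control siRNA, 2.14, 2.46 and 2.26 under siRNA.1 and 0.94, 0.87 and 0.91 under siRNA.2. It rose by 0.97 on the log2 scale under siRNA.1 (SE 0.15, adjusted p = 1.85e-09), and under siRNA.2 its value was -0.34 (SE 0.16, adjusted p = 0.094), a difference between siRNAs of -1.31 (adjusted p = 4.77e-16). SLC2A1 made up 96.4% ± 0.224 of the summed SLC2A1 and SLC2A3 level under control siRNA, 93.4% ± 0.621 under siRNA.1 and 96.8% ± 0.123 under siRNA.2, and each difference from control had p = 0.1, the smallest that an exact two-sided permutation test of 3 against 3 libraries can give.

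The hexokinases moved in opposite directions. HK1 (the broadly expressed hexokinase; ENSG00000156515, chromosome 10, 69269984 to 69401884, plus strand) was at 39.1, 38.5 and 39.1 FPKM under control siRNA, 34.0, 34.0 and 33.2 under siRNA.1, and 30.0, 32.0 and 32.4 under siRNA.2. Both PARylator siRNA groups were below every control library, with log2 fold changes of -0.23 (SE 0.05, adjusted p = 3.85e-06) and -0.32 (SE 0.05, adjusted p = 8.72e-11) in edgeR's test. HK2 (the inducible hexokinase that tumors often express highly; ENSG00000159399, chromosome 2, 74834127 to 74893359, plus strand) was at 16.2, 16.4 and 15.4 FPKM under control siRNA, 19.6, 21.7 and 19.9 under siRNA.1, and 23.6, 21.7 and 22.5 under siRNA.2. All 6 PARylator siRNA libraries were above the control libraries, with log2 fold changes of 0.33 (SE 0.05, adjusted p = 2.84e-08) and 0.49 (SE 0.05, adjusted p = 2.48e-18), the largest increase among the 10 genes. HK2's share of the summed level of HK1, HK2, HK3 and HKDC1 was 29.0% ± 0.816 under control siRNA, 37.4% ± 1.27 under siRNA.1 and 41.6% ± 1.98 under siRNA.2. The share was higher in every PARylator siRNA library, by 8.45 and 12.6 percentage points, at the smallest p of 0.1 for this exact test with each siRNA. HK3 (a hexokinase found mainly in blood cells) was rare, with 6, 0 and 0 counts in the control libraries, 18, 11 and 17 under siRNA.1 and 15, 17 and 14 under siRNA.2, and log2 fold changes of 2.76 (SE 0.75, adjusted p = 0.00117) and 2.52 (SE 0.75, adjusted p = 0.00363).

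PFKP (the platelet-type phosphofructokinase, at the committed step; ENSG00000067057, chromosome 10, 3066333 to 3137718, plus strand) was slightly higher. Its levels were 36.5, 38.4 and 37.5 FPKM under control siRNA, 42.5, 40.9 and 39.8 under siRNA.1, and 42.8, 41.7 and 41.2 under siRNA.2, so the ranges did not overlap. Its log2 fold change was 0.10 under siRNA.1 (SE 0.04, adjusted p = 0.0493) and 0.15 under siRNA.2 (SE 0.04, adjusted p = 0.00231) in edgeR's test. The siRNA.1 call was close to the threshold: it was lost in 8 of 14 other settings, and on leaving out control replicate 1 or 3, siRNA.1 replicate 1 (log2 0.08, adjusted p = 0.22), or siRNA.2 replicate 2 or 3. The siRNA.2 call was lost in limma on log2(FPKM + 0.1), at 0.16 (adjusted p = 0.0604). Of its isoenzymes, PFKM (the muscle type) had 0.18 under siRNA.1 (adjusted p = 0.00957) and 0.11 under siRNA.2 (adjusted p = 0.125), and PFKL (the liver type) 0.11 and 0.02 (adjusted p = 0.192 and 0.891). PFKP's share of the 3 was 65.5% ± 0.531 under control siRNA, 64.8% ± 1.30 under siRNA.1 (exact permutation p = 0.6) and 66.6% ± 0.807 under siRNA.2 (exact permutation p = 0.1).

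ALDOA (aldolase, which splits fructose 1,6-bisphosphate; ENSG00000149925, chromosome 16, 30064164 to 30070457, plus strand) was lower with both siRNAs. It was at 39.9, 40.1 and 41.8 FPKM under control siRNA, 34.2, 35.2 and 37.6 under siRNA.1, and 30.5, 33.1 and 32.7 under siRNA.2. Every PARylator siRNA library lay below the control libraries, with log2 fold changes of -0.21 (SE 0.05, adjusted p = 0.000214) and -0.35 (SE 0.05, adjusted p = 1.46e-10) in edgeR's test. The level of ALDOA is uncertain, because 54.2% of its exonic bases are shared with other genes in GENCODE release 44 and the handling of such bases is not given in the sources used here. Summed with the row of its same-strand partner ENSG00000285043, an alternative added after seeing the data, it had -0.22 and -0.34. That row held 569 counts over the 9 libraries, beside 22080 for ALDOA, so the sum could move little. It cannot show how reads on the shared bases were counted. The siRNA.1 call of ALDOA was lost in limma on log2(FPKM + 0.1), at -0.19 (adjusted p = 0.0673).

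GAPDH (glyceraldehyde-3-phosphate dehydrogenase, often used as a reference gene; ENSG00000111640, chromosome 12, 6534512 to 6538374, plus strand) was the most abundant of the 10 and differed between siRNAs. It was at 1130, 1143 and 1127 FPKM under control siRNA, 1033, 1011 and 1003 under siRNA.1, and 1076, 1126 and 1108 under siRNA.2. All siRNA.1 libraries were the lowest, and the siRNA.2 libraries reached just under the control range. The log2 fold change was -0.19 under siRNA.1 (SE 0.03, adjusted p = 4.66e-09) and -0.05 under siRNA.2 (SE 0.03, adjusted p = 0.208) in edgeR's test. GAPDH shares 17.6% of its exonic bases with an antisense gene, and whether counting used strand is not given in the sources used here.

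PGK1 (phosphoglycerate kinase, the first ATP-producing step; ENSG00000102144, chromosome X, 77910739 to 78129295, plus strand) was at 162, 164 and 159 FPKM under control siRNA, 144, 141 and 143 under siRNA.1, and 145, 150 and 152 under siRNA.2. The groups did not overlap control, and the log2 fold changes were -0.21 (SE 0.04, adjusted p = 6.25e-08) and -0.13 (SE 0.04, adjusted p = 0.00138) in edgeR's test. The siRNA.2 call was lost in limma at both pseudocounts, to an adjusted p of 0.105 and 0.0729. ENO1 (enolase, which makes phosphoenolpyruvate; ENSG00000074800, chromosome 1, 8861000 to 8879190, minus strand) did not pass the test under either siRNA, at 335, 352 and 332 FPKM under control siRNA, 347, 333 and 332 under siRNA.1, and 343, 360 and 359 under siRNA.2. Its ranges overlapped control with each siRNA, at -0.04 (SE 0.03, adjusted p = 0.419) and 0.05 (SE 0.03, adjusted p = 0.245). Without siRNA.2 replicate 1 the latter became 0.08 (adjusted p = 0.0251).

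PKM (pyruvate kinase, the last step to pyruvate; ENSG00000067225, chromosome 15, 72199029 to 72231822, minus strand) was at 203, 204 and 196 FPKM under control siRNA, 179, 170 and 170 under siRNA.1, and 164, 168 and 172 under siRNA.2. All 6 PARylator siRNA libraries were below the control range, and the log2 fold changes were -0.25 (SE 0.03, adjusted p = 2.85e-13) and -0.27 (SE 0.03, adjusted p = 1.52e-15) in edgeR's test. The gene-level count does not separate the M1 and M2 splice forms of PKM. LDHA (the lactate dehydrogenase subunit that favours lactate production; ENSG00000134333, chromosome 11, 18394560 to 18408425, plus strand) was at 160, 165 and 162 FPKM under control siRNA, 133, 128 and 131 under siRNA.1, and 130, 131 and 130 under siRNA.2. The PARylator siRNA libraries lay well below the control ones, with log2 fold changes of -0.34 (SE 0.04, adjusted p = 3.33e-20) and -0.33 (SE 0.04, adjusted p = 3.08e-19), and LDHA had the smallest adjusted p of the 10 with each siRNA. LDHB, the subunit found with LDHA in the tetramer, was at 69.8 ± 1.4, 69.6 ± 4.0 and 73.2 ± 1.8 FPKM (SD, n = 3), with -0.03 (adjusted p = 0.697) and 0.06 (adjusted p = 0.382). LDHA's share of the LDHA and LDHB level was 70.0% ± 0.523, 65.3% ± 0.842 and 64.0% ± 0.563 in the 3 groups, differences of -4.69 and -5.97 percentage points at the smallest p of 0.1 for this exact permutation test. ALDOA's share of the aldolases was 94.4% under control siRNA, 96.1% under siRNA.1 (exact p = 0.1) and 95.8% under siRNA.2 (exact p = 0.2), and that of ENO1 among the enolases 98.4%, 98.0% (exact p = 0.2) and 98.3% (exact p = 1). The aldolase share carries the uncertainty of ALDOA's level given above.

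**Figure D3:**
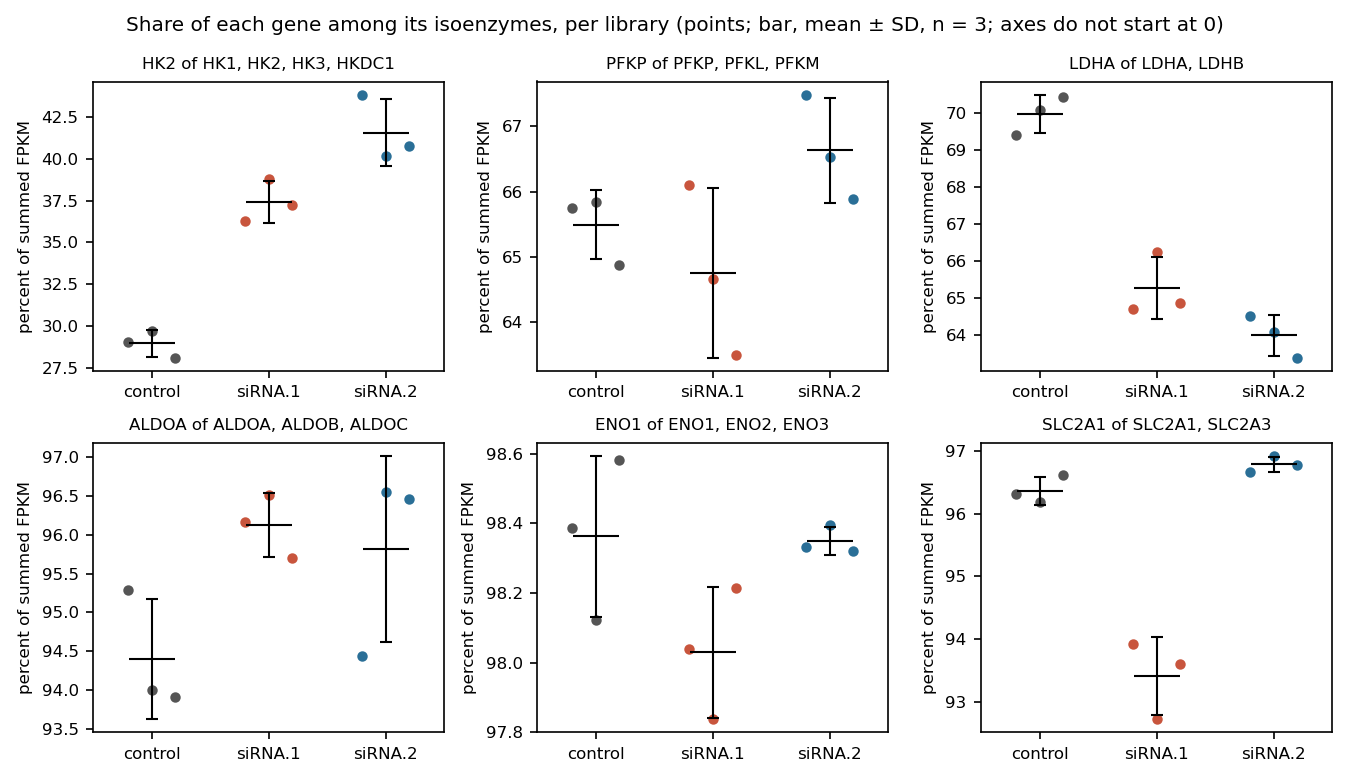
Percent of the summed FPKM of its isoenzymes that each gene took in each library (vertical axes, which do not start at 0), by group, with points for libraries and bars for mean ± SD. The HK2 panel rises from 29.0% under control siRNA to 37.4% and 41.6%, and the LDHA panel falls from 70.0% to 65.3% and 64.0%.

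The 2 siRNAs were compared directly, and 4 of the 10 genes differed at an adjusted p of 0.05 in edgeR's test, against 12.2% of all genes and 33.4% of genes with at least the lowest mean FPKM. The siRNA.2 libraries were lower for SLC2A1 (6.06% of all genes were lower) and higher for HK2 (0.16, SE 0.05, adjusted p = 0.0195), GAPDH (0.14, SE 0.03, adjusted p = 0.000118) and ENO1 (0.09, SE 0.03, adjusted p = 0.0454), where 6.10% of all genes were higher. The count was 2 without siRNA.1 replicate 3 or siRNA.2 replicate 3, where 1964 and 1907 of all genes were called. It was 1 in limma at each pseudocount, where 607 and 834 of all genes were called. The HK2 call was lost in 4 of 14 other settings and without replicate 1 or 3 of either PARylator siRNA. The GAPDH call was lost in limma at both pseudocounts (adjusted p = 0.222 and 0.159), and the ENO1 call in 11 of 14 other settings and on leaving out 5 of the 9 libraries. The other 6 genes had unadjusted 95% intervals of the difference, on the log2 scale, of -0.17 to 0.0069 (HK1), -0.038 to 0.13 (PFKP), -0.24 to -0.035 (ALDOA), 0.0089 to 0.15 (PGK1), -0.084 to 0.042 (PKM) and -0.060 to 0.079 (LDHA). ALDOA was called in DESeq2 (adjusted p = 0.0430), with RLE size factors (adjusted p = 0.0379), with library totals in place of TMM (adjusted p = 0.0246) and without siRNA.1 replicate 1 (-0.16, adjusted p = 0.0287), and PGK1 without siRNA.2 replicate 1 (0.11, adjusted p = 0.0294).

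Windows were taken from 250 bases before to 50 after each RefSeq start (GRCh38.p14, all 10 genes matched). In 4 of the 10 genes a window held the letters CACGTG, an E-box that MYC and its partners are known to bind. Of the 27305 genes in the RefSeq table, 8.78% held it in some window, as did 7.26% of the 35116 windows. A gene can have several windows, and of the 23 windows of the 10 genes 4 held it. The letters read the same on both strands. These 4 windows are shown, upstream part only. Of their genes, HK2 rose and LDHA and ALDOA fell with both siRNAs, and GAPDH fell under siRNA.1. A link between the letters and these changes was not tested. The E-box is in capitals, starting 194 and 149 bases before the start in HK2 (chr2:74834920-74835169), 185 and 87 in LDHA (chr11:18394313-18394562), 81 in GAPDH (chr12:6535014-6535263) and 112 in ALDOA (chr16:30064247-30064496), all on the plus strand. The starts used for HK2 (74835170), GAPDH (6535264) and ALDOA (30064497) lie inside genes that begin at 74834127, 6534512 and 30064164 in the deposited coordinates. Such a window need not be the main promoter of its gene.
HK2: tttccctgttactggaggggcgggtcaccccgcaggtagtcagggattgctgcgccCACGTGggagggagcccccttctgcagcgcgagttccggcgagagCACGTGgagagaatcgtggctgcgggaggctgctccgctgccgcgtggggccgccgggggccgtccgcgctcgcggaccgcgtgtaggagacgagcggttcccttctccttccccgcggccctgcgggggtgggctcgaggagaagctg
LDHA: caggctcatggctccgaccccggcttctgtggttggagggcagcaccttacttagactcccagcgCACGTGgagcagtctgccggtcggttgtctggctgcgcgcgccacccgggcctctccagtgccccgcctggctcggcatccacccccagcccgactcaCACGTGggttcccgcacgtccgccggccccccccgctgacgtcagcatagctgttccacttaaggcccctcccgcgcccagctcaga
GAPDH: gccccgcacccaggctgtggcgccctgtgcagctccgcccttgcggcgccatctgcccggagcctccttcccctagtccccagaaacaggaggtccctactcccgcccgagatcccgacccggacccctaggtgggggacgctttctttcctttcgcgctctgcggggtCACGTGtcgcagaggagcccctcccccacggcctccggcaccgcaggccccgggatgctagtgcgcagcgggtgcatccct
ALDOA: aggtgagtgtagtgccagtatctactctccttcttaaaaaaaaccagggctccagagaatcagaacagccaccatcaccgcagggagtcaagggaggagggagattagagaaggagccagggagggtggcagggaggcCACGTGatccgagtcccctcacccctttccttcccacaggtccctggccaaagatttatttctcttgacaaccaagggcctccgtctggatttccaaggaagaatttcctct
The match is a description of these letters, not of a bound site. The shorter ACGTG, which overlaps the E-box and is the core of the HIF-1 response element, was in windows of 6 of the 10 genes (with PFKP and PGK1 added) and of 24.9% of all genes.

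Among the transcription factors named for these genes, MYC was at 45.6, 45.4 and 44.4 FPKM under control siRNA, 83.4, 83.4 and 81.6 under siRNA.1, and 79.7, 80.6 and 81.9 under siRNA.2. All 6 PARylator siRNA libraries were far above the control ones, with log2 fold changes of 0.85 (SE 0.04, adjusted p = 3.06e-83) and 0.83 (SE 0.04, adjusted p = 4.96e-80) in edgeR's test. HIF1A, the oxygen-regulated subunit of HIF-1, had -0.17 (adjusted p = 0.000427) and -0.06 (adjusted p = 0.301), and its partner ARNT fell by 0.47 and 0.53 on the log2 scale. TXNIP, an arrestin-like protein that lowers glucose uptake, was at 34.5, 32.9 and 37.0 FPKM under control siRNA, 72.4, 72.9 and 73.6 under siRNA.1, and 62.3, 57.2 and 56.3 under siRNA.2. It rose by 1.04 and 0.74 on the log2 scale (adjusted p = 2.39e-102 and 6.47e-52). Of the 15 regulators, 2 were called higher and 3 lower under siRNA.1, and 4 and 4 under siRNA.2. In all 33.3% and 53.3% of them were called, beside 30.3% and 30.9% of all genes tested.

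The other 13 tested enzymes of the pathway moved both ways, with 4 called higher and 3 lower with each siRNA. In all 53.8% of them were called, beside 30.3% and 30.9% of all genes. Of genes with at least the lowest mean FPKM of the 10, 60.8% and 62.2% were called. PGAM1, the phosphoglycerate mutase between PGK1 and ENO1, rose from 129 ± 6.9 FPKM to 155 ± 7.0 and 149 ± 1.0 (SD, n = 3), by 0.24 and 0.19 on the log2 scale (adjusted p = 1.68e-07 and 2.09e-05). GPI, the isomerase after hexokinase, fell by 0.21 and 0.10 (adjusted p = 2.31e-06 and 0.0397), the minor aldolase ALDOC by 0.75 and 0.79, and BPGM, which makes bisphosphoglycerate, by 0.40 and 0.36, while the minor enolase ENO3 rose by 0.54 and 0.49. TPI1, chosen for mention after its values were seen, had 0.04 (adjusted p = 0.472) and 0.10 (adjusted p = 0.0327). The median log2 fold change of the 13 was 0.06 under siRNA.1 and 0.02 under siRNA.2. Genes that the deposited table annotates to glycolysis and gluconeogenesis, a list added after seeing the data, numbered 73 tested, with 13 higher and 26 lower under siRNA.1 and 12 higher and 22 lower under siRNA.2. Without the 9 of the 10 genes that it holds, 11 and 20 and then 10 and 17 of 64 were called.

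**Figure D4:**
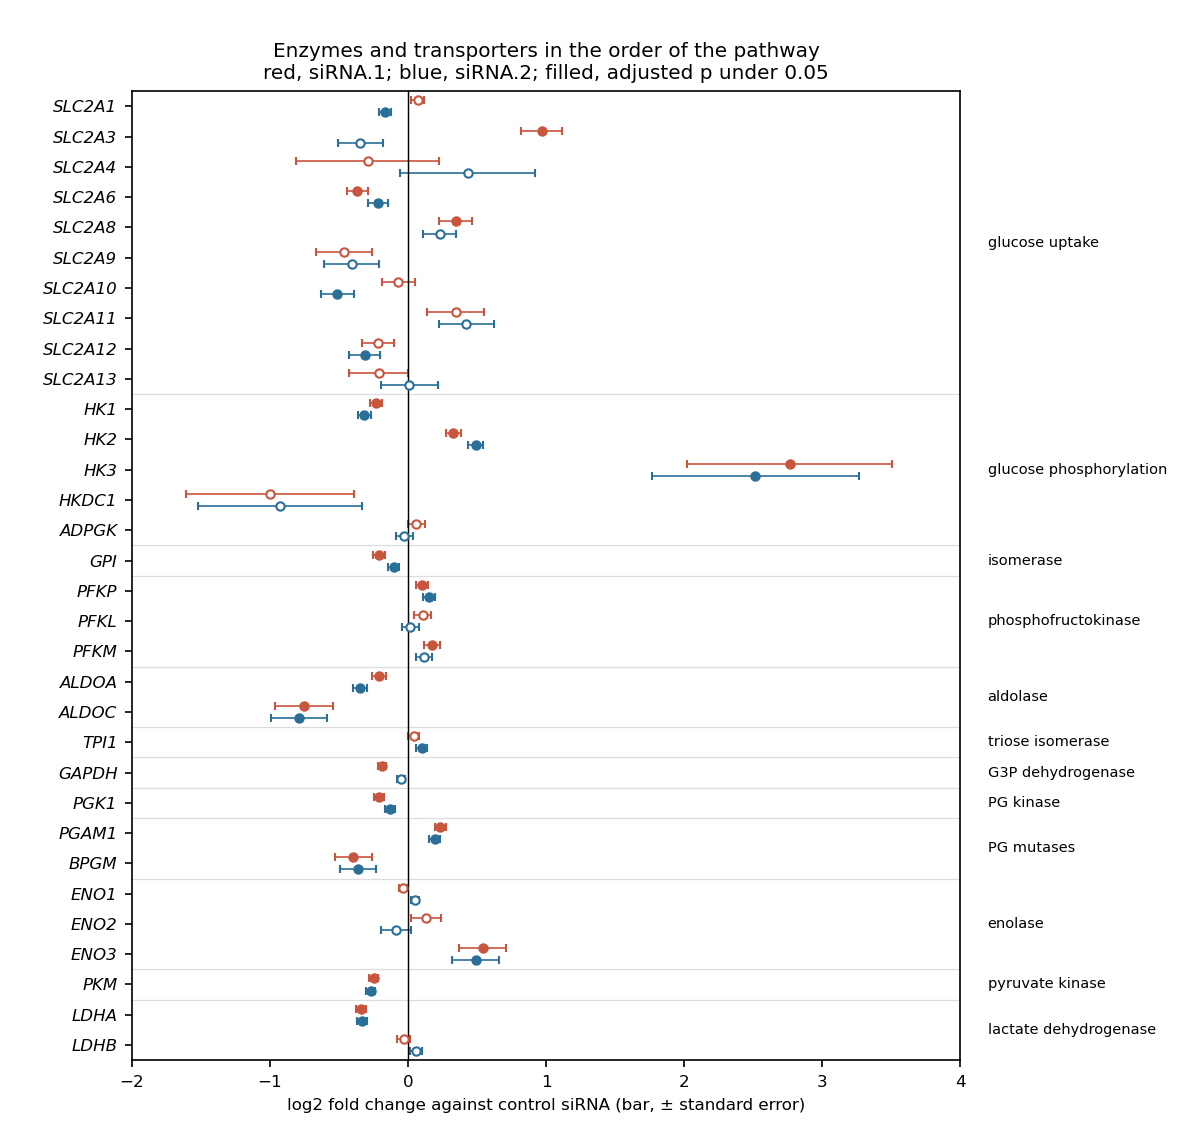
Log2 fold change against control siRNA (horizontal axis), with bars of ± 1 SE, for every tested glucose transporter and glycolysis enzyme from uptake (top) to lactate (bottom), in red for siRNA.1 and blue for siRNA.2. HK2, PFKP and PGAM1 lie above 0 with both siRNAs, HK1, ALDOA, PGK1, PKM and LDHA lie below it, and HK3 is far to the right with wide errors.

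Beside the counts below, 15.0% of all genes tested were called higher and 15.2% lower under siRNA.1, and 15.8% and 15.1% under siRNA.2. The 9 other tested transporters had 2 called higher and 1 lower under siRNA.1, and 0 higher and 3 lower under siRNA.2, of which SLC2A6 fell by 0.37 and 0.22 on the log2 scale. Of the 5 genes that set fructose 2,6-bisphosphate, the activator of phosphofructokinase, 1 and 2 were lower and 0 higher, and PFKFB4, named after its values were seen, fell by 0.83 and 0.50 on the log2 scale. Lactate and pyruvate transport (8 genes) had 2 higher and 3 lower under siRNA.1 and 1 and 2 under siRNA.2. The lactate exporter SLC16A3 was opposite in the siRNAs, at 0.19 (adjusted p = 0.00298) and -0.18 (adjusted p = 0.00859). Its FPKM under siRNA.1 (11.19, 12.88 and 11.72) overlapped control (11.41, 9.63 and 9.63). The transporter SLC16A1 rose by 0.15 and 0.17, and MPC2, of the mitochondrial pyruvate carrier, fell by 0.28 and 0.25. Of the 7 tested pentose phosphate genes, 2 were higher and 4 lower with each siRNA. PGD, which makes NADPH in the oxidative branch, fell from 51.3 to 28.7 and 34.9 FPKM (-0.86 and -0.57), and RPIA in the non-oxidative branch rose by 0.62 and 0.58. In pyruvate dehydrogenase and its control (11 tested), 1 was higher and 4 lower under siRNA.1 and 2 and 4 under siRNA.2, with DLD, the shared dihydrolipoamide dehydrogenase, falling by 0.38 and 0.24 on the log2 scale, the phosphatase PDP1 falling by 0.29 and 0.36, and PDHX rising by 0.33 and 0.26. Of the 5 tested gluconeogenesis genes 3 and 2 were higher and 1 and 1 lower, with FBP1 (fructose-1,6-bisphosphatase) rising from 0.357 to 2.59 and 2.07 FPKM, by 2.83 and 2.52 on the log2 scale. PCK2, the mitochondrial phosphoenolpyruvate carboxykinase, rose by 0.67 and 0.76, and PC, pyruvate carboxylase, fell by 0.90 and 0.72. In glycogen and hexosamine branches (11 tested) 2 and 2 were higher and 4 and 2 lower, with UGP2 falling by 0.59 and 0.21, GNPNAT1 falling by 0.43 and 0.21, and the glycogen phosphorylase PYGB rising by 0.43 and 0.36. Of the 16 tested hypoxia-responsive genes outside glycolysis, 7 and 7 were higher and 4 and 2 lower, with STC2 rising by 0.85 and 0.79, VEGFA rising by 0.52 and 0.48, ERO1A rising by 0.31 and 0.36, BNIP3L falling by 0.63 and 0.70 and NDRG1 falling by 0.51 and 0.50.

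GAPDH is widely used to normalise qPCR, though the study's methods give a ribosomal RNA for this. Other common reference genes were read beside GAPDH. Of 15 such genes outside the 10, 5 were higher and 6 lower under siRNA.1 and 4 higher and 3 lower under siRNA.2. In all 73.3% and 46.7% of them were called, beside 30.3% and 30.9% of all genes. Of genes with at least the lowest mean FPKM of the 10, 60.8% and 62.2% were called. B2M rose from 313 to 762 and 655 FPKM (1.26 and 1.05 on the log2 scale), TFRC rose by 0.42 and 0.40, HPRT1 rose by 0.26 and 0.30, RPLP0 fell by 0.31 and 0.26, ACTB fell by 0.15 and 0.20 and YWHAZ fell by 0.21 and 0.10.

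The median log2 fold changes of these lists, siRNA.1 before siRNA.2, were -0.21 and -0.22 for the transporters, -0.34 and -0.29 for fructose 2,6-bisphosphate control, 0.06 and 0.0061 for lactate and pyruvate transport, -0.14 and -0.08 for pyruvate dehydrogenase and -0.21 and -0.15 for the pentose phosphate pathway. They were 0.67 and 0.12 for gluconeogenesis, -0.09 and -0.02 for the glycogen and hexosamine branches, 0.02 and -0.06 for the regulators, 0.09 and 0.17 for the hypoxia-responsive genes and -0.10 and -0.0019 for the reference genes, beside -0.00056 and 0.0040 over all genes tested. Of the 115 tested genes in the 11 lists outside the 10, 30 were called higher and 34 lower under siRNA.1, 28 and 30 under siRNA.2, and 14 and 7 in siRNA.2 against siRNA.1. Of all genes tested, 30.3%, 30.9% and 12.2% were called in these comparisons. No list was tested as a set.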

How the data were processed

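Poly(A) RNA-seq was made of 9 TE13 libraries, 3 per group, and groups were taken from sample titles. Per the study's methods, reads were aligned with STAR to a human reference, for which GRCh38 stands as an example, and counted per gene with featureCounts. The submitters' processing notes list GRCh38; tool versions, annotation release and strandedness are not given in the sources used here. The counts that the authors deposited are raw, and the FPKM values deposited beside them recomputed from counts, exonic length and library total to within 0.005. The deposited gene coordinates were used, and 9 of the 10 genes have the same start and end in GENCODE release 44.

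Counts were tested with edgeR 4.0.16 in R 4.3.3 (quasi-likelihood, TMM factors 0.989 to 1.02, common biological coefficient of variation 0.0566), in 1 fit of the 3 groups over the 21395 genes that averaged 0.1 FPKM or more. Benjamini-Hochberg adjustment was over all genes tested, with a threshold of 0.05. SE is the absolute log2 fold change over the square root of F, and intervals of a difference are 1.96 SE wide each way. Shares of isoenzymes were compared by an exact two-sided permutation test, and other values are descriptions. Some genes of these lists are not reported here, and the HK2 share was taken over the 4 hexokinases named. Genes outside the 10 were named by rule: in each list up to 3 called in 1 direction with both siRNAs with the largest mean change, at 1 FPKM or more, those called in opposite directions, the isoenzymes, and HIF1A, MYC and TXNIP. The members and lists were chosen with earlier results of these data known. The script was tested on simulated data. Alternatives were DESeq2 1.42.0, limma 3.58.1 on log2(FPKM + 0.1) and log2(FPKM + 1), other scalings and filters, stricter thresholds, a replicate block, added pseudogene counts and each library left out. Promoter windows were set at RefSeq starts (GRCh38.p14), of which a gene can have several.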

Additional observations from a re-analysis of the deposited data

Results flagged for a closer look

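Some results differed between the siRNAs in the direct comparison of siRNA.2 with siRNA.1 (edgeR's quasi-likelihood test, adjusted p under 0.05), and the cause of these differences was not tested. Among the 10 genes, the log2 difference was -0.24 for SLC2A1 (adjusted p = 1.53e-05), 0.16 for HK2 (adjusted p = 0.0195), 0.14 for GAPDH (adjusted p = 0.000118) and 0.087 for ENO1 (adjusted p = 0.0454). Of the named transport genes, it was -1.31 for SLC2A3 and -0.37 for SLC16A3 (adjusted p = 4.77e-16 and 3.60e-09). Transport did not move 1 way: of the 8 lactate and pyruvate transport genes, 2 were called higher and 1 lower. Of the 9 other tested glucose transporters, 0 were higher and 2 lower, where 12.2% of all genes were called. In the branches it was 0.30 for PGD, 0.39 for UGP2, 0.22 for GNPNAT1 and 0.14 for DLD (adjusted p = 1.29e-06, 2.82e-10, 0.000368 and 0.0258). Of the other named genes, TXNIP had -0.30 (adjusted p = 4.50e-09), B2M -0.20 (adjusted p = 1.20e-10) and YWHAZ 0.11 (adjusted p = 0.00659).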

How the results depend on the processing

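Most calls of the 10 genes kept direction and side of the threshold, and the cause of each change below was not tested. Of the 10 genes, 5 were called with siRNA.2 in limma on log2(FPKM + 0.1), against 8. Of all 21395 genes, 4692 were called there, against 6614 in edgeR. Between the siRNAs, 607 and 834 of all genes were called in limma, and 1732 at an adjusted p under 0.01, against 2603. Of the 10 genes, 1 was called in limma at both pseudocounts, and 2 at an adjusted p under 0.01, against 4. None reached an absolute log2 fold change of 0.5 with either siRNA or between them (0, 0 and 0), a threshold that left 24, 18 and 1 genes of the other lists, where edgeR called 64, 58 and 21. Those lists had 4 and 10 calls between the siRNAs in limma. With 1 library left out, the 10 genes had 7 to 8, 8 to 9 and 2 to 4 calls, and the other lists 56 to 63, 47 to 60 and 15 to 24. All genes tested then had 5607 to 6497, 5682 to 6739 and 1907 to 2699 calls. The share differences of HK2 were 7.77 to 9.03 and 11.5 to 13.3 points, those of PFKP -1.41 to -0.11 and 0.715 to 1.52, of LDHA -5.18 to -4.41 and -6.25 to -5.67, of ALDOA 1.49 to 2.18 and 1.05 to 2.11, of ENO1 -0.453 to -0.223 and -0.134 to 0.0957, and of SLC2A1 -3.20 to -2.60 and 0.325 to 0.544. From raw counts the LDHA differences were -3.32 and -4.25. Without mitochondrial genes, the 10 genes took 0.980%, 0.868% and 0.899% of counts. Between the siRNAs, values near 0 changed sign (with 1 library left out, LDHA ran from -0.013 to 0.026 and PKM from -0.044 to 0.0077): LDHA in DESeq2 (-0.0010), limma (-0.0063 at both pseudocounts), library totals (-0.0067), RLE (-0.00087), and without siRNA.1 replicate 2 (-0.013) or siRNA.2 replicate 2 (-0.00072), and PKM without siRNA.1 replicate 1 (0.0056) or siRNA.2 replicate 1 (0.0077).

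Deviations of same-numbered replicates of different groups had correlations of -0.19 to 0.11 over 11156 genes. Replicates with different numbers were not compared, so these values cannot show whether the replicates were paired. With the replicate block in edgeR's test, 7, 8 and 3 of the 10 genes were called, beside 6215, 6359 and 2342 of all 21395 genes. There PFKP with siRNA.1 had an adjusted p of 0.0796 and ENO1 between the siRNAs 0.0770. Over all genes, limma called 607 and 834 between the siRNAs against 2603, of which 34.3% and 35.4% were higher against 50.2%; with the log2 threshold 490 remained, 40.6% higher, and 2409 and 2504 against control. The median of all genes moved by less than 0.1 in every setting. Low-count genes (LINC00885, HK3) limit what could be detected.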
